A study of Mus musculus with 20 samples.

Results

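The 8 genes described here handle iron and heme in macrophages: Slc40a1 (ferroportin, the exporter of cellular iron), Fth1 and Ftl1 (the heavy and light chains of the iron store ferritin), Ncoa4 (the receptor that delivers ferritin for breakdown), Hmox1 (heme oxygenase 1, which opens the heme ring and frees its iron), Blvrb (biliverdin reductase B, which acts on products of heme breakdown), Tfrc (the transferrin receptor, through which cells take up iron) and Slc11a1 (a metal transporter of the phagosome membrane). They were chosen by name, as genes of iron export, storage, uptake and heme breakdown, with earlier results of these data known. All 8 were measured in both single-cell tables, among 15855 genes of cultured cells and 15333 genes of tumor cells. Slc40a1 was also singled out by the study from the same libraries, in the cultures and in clusters of the tumor cells. Its differences between the cultures and within the tumor are therefore not independent evidence.

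The scRNA-seq data covered macrophages from female mice, grown from B cells of the bone marrow (BM; B-MF, 2 libraries) or from monocytes (Mo-MF, 2 libraries) in conditioned medium of the 4T1.2 mammary carcinoma line, and myeloid cells that were sorted as tumor-associated macrophages (TAM) from 4 mice bearing 4T1.2 tumors (1 library each). The conditioned medium was given to both cultures, so neither served as an untreated control, and the strain behind each library is not given in the sources used here: the methods name C57BL/6 and BALB/c mice as sources of cultured B cells, and BALB/c or μMT mice as hosts of 4T1.2 tumors. The ATAC-seq data covered B-cell precursors (BMBP) of naïve mice, sorted as CSF1R+ or CSF1R− from BM and spleen (3 libraries in each of the 4 groups). The labels name all these cells macrophages, and the name BMBP follows the study's text.

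Macrophages recover iron from engulfed cells: heme is opened by heme oxygenase, and the freed iron is stored in ferritin or leaves through ferroportin. When iron is scarce, iron regulatory proteins bind hairpins named iron-responsive elements (IREs), which block translation of the messages with an IRE before the coding region and stabilize the transferrin receptor message. Transcription of Hmox1 and of both ferritin chains is also known to respond to NRF2 and BACH1, and a restricted set of genes, Slc40a1 and Hmox1 among them, to free heme.

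The hairpins are printed because they show which of these messages hold the letters of an IRE. The search was for an unpaired C, a stem of 5 pairs and a loop beginning CAGTG, above a lower stem of at least 4 pairs. It found such a hairpin in an untranslated region of 17 of 21864 genes (0.0778%). Of the 8 iron genes 4 held it: Fth1, Ftl1, Tfrc and Slc40a1. The elements of Fth1, Ftl1 and Tfrc are given 5′ to 3′ from GRCm38, with the loop in capitals.
Fth1, 5′ UTR, chr19:9982733-9982759, plus strand: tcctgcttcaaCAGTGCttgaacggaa
Ftl1, 5′ UTR, chr7:45459780-45459806, minus strand: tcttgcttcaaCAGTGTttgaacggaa
Tfrc, 3′ UTR, chr16:32631220-32631246, plus strand: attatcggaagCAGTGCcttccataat
Tfrc, 3′ UTR, chr16:32631599-32631625, plus strand: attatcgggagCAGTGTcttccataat
Tfrc, 3′ UTR, chr16:32631664-32631690, plus strand: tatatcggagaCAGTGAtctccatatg
Tfrc, 3′ UTR, chr16:32631711-32631737, plus strand: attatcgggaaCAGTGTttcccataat
The ferritin hairpins lie before the coding region and share their stem letters almost throughout, while the 4 Tfrc hairpins lie behind it and differ more among themselves. A match of letters is a description and does not show that a protein binds there.

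Values below are corrected counts per cell: transcripts counted per cell and adjusted by the authors to a shared depth, so that their totals do not give sequencing depth. Libraries held 4846–5389 cultured and 2318–3180 tumor cells, and the median cell had 18350–19469 and 7651–8266 corrected counts. Cultured and tumor cells were normalized separately and were never tested against each other. The mitochondrial share of counts was 8.02% and 7.76% for B-MF and 5.10% and 5.26% for Mo-MF. Few barcodes were shared between libraries (90 of 20798 cultured and 26 of 10885 tumor cells). The macrophage markers summed to 302 and 290 per cell in B-MF and to 619 and 609 in Mo-MF, with all 9 detected, while B-cell markers summed to 0.102 and 0.102 in B-MF and to 0.113 and 0.104 in Mo-MF. Erythroid markers, which would bring their own heme genes, stayed at or below 0.06 per cell in every library.

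Among cultured macrophages the exporter and the store stood on opposite sides. Slc40a1 was several times higher in B-MF, Fth1 was higher in Mo-MF, and the remaining genes differed by less than either. B-MF held 4.33 and 4.29 exporter counts per cell, and Mo-MF held 0.878 and 0.834. Both B-MF libraries lay far above both Mo-MF libraries. The difference was 2.21 on the log2 scale (SE 0.0517, limma with Benjamini-Hochberg adjustment, adjusted p = 5.73e-08), and fold changes here are on the scale of log2(mean count + 0.1).

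Slc40a1 counts were also read cell by cell. A Slc40a1 count was found in 83.4% and 82.4% of B-MF and in 38.4% and 38.1% of Mo-MF, with a median of 3 counts in B-MF and 0 in Mo-MF. The 10% of cells with the most Slc40a1 held 33.8% and 33.6% of its counts among B-MF, compared with 60.5% and 59.4% among Mo-MF. Both measures follow the mean where counts are sparse, so they do not show that the distributions differed beyond the mean. No class of cells known to lack the gene was measured in the cultures, so the share that free RNA gives there was not tested.

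Ferritin ran the other way. Fth1 counts were 813 and 874 per cell of B-MF against 1337 and 1395 of Mo-MF, lower in B-MF by a log2 difference of −0.70 (SE 0.0574, limma adjusted p = 4.04e-05). Ftl1 measured 509 and 505 against 579 and 586 (−0.20, SE 0.0491, limma adjusted p = 0.0134). The libraries did not overlap for either chain, but the light chain differed much less than the heavy chain. Ncoa4, which sends ferritin to the lysosome, measured 2.26 and 2.32 against 2.16 and 2.13, and its log2 difference of 0.09 did not pass the test (SE 0.050, limma adjusted p = 0.185). Under 4 alternatives it was called higher in B-MF (adjusted p = 0.0124 to 0.0409): a pseudocount of 1, a minimum of 0.5, averages of log values and the fit without the first B-MF library.

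Hmox1, which opens heme, was lower in B-MF, and Blvrb, a biliverdin reductase, was higher. Hmox1 stood at 4.19 and 4.13 among B-MF against 5.04 and 5.06 among Mo-MF (−0.27, SE 0.0491, limma adjusted p = 0.00311). Blvrb stood at 11.1 and 10.95 among B-MF against 9.07 and 9.22 among Mo-MF (0.27, SE 0.0494, limma adjusted p = 0.00358). Without the first Mo-MF library Blvrb no longer passed the test (adjusted p = 0.0529). Both differences were small beside that of Slc40a1, although the libraries of the cultures did not overlap.

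Of the uptake genes, the phagosomal transporter was lower in B-MF. Slc11a1 reached 1.94 and 1.92 among B-MF against 2.78 and 2.70 among Mo-MF (−0.48, SE 0.0499, limma adjusted p = 0.000153). Tfrc measured 3.62 and 3.52 against 4.02 and 4.02 (−0.17, SE 0.0499, limma adjusted p = 0.0298). The Tfrc call was lost when either Mo-MF library was left out (adjusted p = 0.264 and 0.255), as was that of Ftl1 (0.134 and 0.176). It was also lost at a pseudocount of 0.01 (adjusted p = 0.0559) and with averages of log values, where the Tfrc difference shrank to −0.0433 (adjusted p = 0.122).

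**Figure D1:**
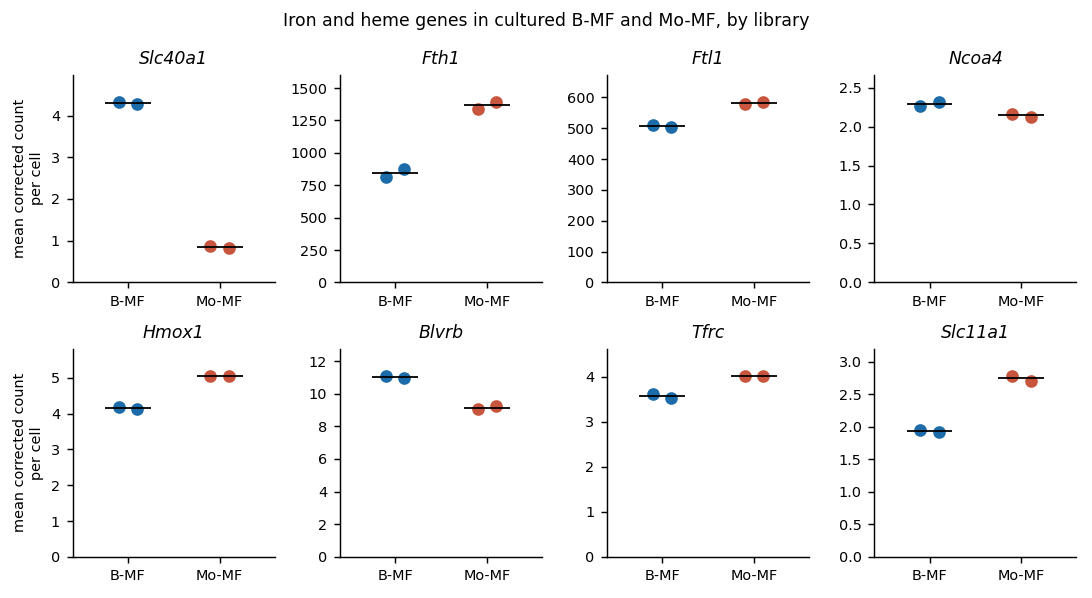
Mean corrected count per cell of each iron gene in the 2 B-MF and 2 Mo-MF libraries, on linear axes from 0, with 1 point per library and a bar at the mean. Slc40a1 lies above 4 counts in both B-MF libraries and below 1 in both Mo-MF libraries, and Fth1 is higher in Mo-MF (1337 and 1395 against 813 and 874).

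In all, 2 iron genes were higher in B-MF (Slc40a1 and Blvrb) and 5 were lower, and 1 (Ncoa4) did not pass the test. Over the 8633 genes tested, 22.6% were higher and 16.9% lower in B-MF, and the median gene differed by 0.02. Mo-MF held 7.37% and 6.35% of cells with high S100a8 and S100a9 (at least 300 counts together), a level shown by neutrophils, against 3 and 0 cells in B-MF. Without these cells the Slc40a1 difference was 2.26, and without cells above 15% mitochondrial counts it was 2.25, as large as with them.

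Beyond the 8 genes, 59 further iron and heme genes were abundant enough to test, and 13 were higher and 12 lower in B-MF, shares near those of all genes tested (22.6% and 16.9%). Lrp1 (a receptor that clears heme bound to hemopexin) was higher by 0.57, Hfe (a partner of the transferrin receptor) by 0.47, Glrx5 (an iron-sulfur cluster chaperone) by 0.45 and Nfe2l2 (which encodes NRF2) by 0.38. Lower in B-MF were Lcn2 (a siderophore-binding protein, −5.85, a value that the pseudocount sets in part because B-MF averaged only 0.00726 counts), Hp (haptoglobin, which binds free hemoglobin, −2.27), Steap4 (a metalloreductase, −1.60, likewise set in part by the pseudocount at 0.00105 counts in B-MF against 0.206) and Slc7a11 (the cystine carrier, −1.07, at 0.0448 counts in B-MF). In B-MF, Lcn2, Steap4 and Slc7a11 lay below the minimum of 0.1, so these genes were tested only because of their level in Mo-MF. Without the S100a8/S100a9-high cells, Lcn2 and Hp shrank to −1.84 and −1.01, and Steap4 and Slc7a11 fell below the minimum for testing.

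By function, read against the same shares of all genes, 3 uptake and trafficking genes were higher and 4 lower of 9 tested. Genes of iron-sulfur clusters and iron chaperones were higher in 5 and lower in 1 of 14. Heme synthesis had 1 lower gene of 12, Alas1, the first enzyme of the pathway.

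The S100a8/S100a9-high cells of the Mo-MF cultures had a high exporter and low ferritin relative to the Csf1r-positive cells beside them. Hmox1, Blvrb, Tfrc, Slc11a1 and Ncoa4 were also lower there than in the other cells of each Mo-MF library. Low levels were thus not particular to ferritin. Neutrophil markers of the S100a8/S100a9-high cells summed to 104 and 102 per cell and their macrophage markers to 262 and 268. The class as a whole thus carried both, and whether single cells did was not tested. Slc40a1 measured 1.33 and 1.40 in the S100a8/S100a9-high cells and 0.862 and 0.807 in the Csf1r-positive cells of the same libraries. A count was found in 67.5% and 73.7% against 36.9% and 36.2% of cells. Fth1 measured 758 and 796 against 1373 and 1428, and Ftl1 289 and 305 against 595 and 600. These values were not tested.

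The tumor libraries gave a second setting for this contrast, because only part of the sorted cells resembled macrophages. Cells with at least 300 counts of S100a8 and S100a9 together made up 34.9–55.4% of each library. Their neutrophil markers summed to 88.9–109 and their macrophage markers to 11.2–15.9 per cell, so the label of the sort was not borne out for them, and they are called S100-high here. The other cells with a Csf1r count (25.1–48.5% of each library) had macrophage markers of 31.1–53.9 and neutrophil markers of 6.15–11.4. The S100-high class was gated without regard to Csf1r. Its cells without a Csf1r count were 779 of 1110, 960 of 1285, 800 of 1086 and 1143 of 1549 in libraries 2 to 5. The rest had such a count. The gates used no iron gene.

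Slc40a1 was again the most different of the 8 genes, now higher in the S100-high cells. It measured 0.756, 0.854, 0.776 and 0.951 counts per cell in the S100-high cells of libraries 2, 3, 4 and 5. In the Csf1r-positive cells it measured 0.163, 0.208, 0.208 and 0.30. Every S100-high value lay above every Csf1r-positive value, with a log2 difference of 1.56 (SE 0.0624, limma with the library as a block, adjusted p = 3.93e-10). A count was found in 38.8% of S100-high and 10.0% of Csf1r-positive cells, where the median cell had 7546–7571 and 8494.5–8544 corrected counts (the depth of sequencing behind these shares is unknown). Lymphocyte-marked cells of the same libraries, which are not known for ferroportin, had a count in 6 of 245 cells (2.45%, pooled over libraries). Their medians were 7503–8054 corrected counts. They were chosen to have no Csf1r count and fewer than 300 counts of S100a8 and S100a9. Both myeloid classes lay above that share, but this choice may leave out cells with stray myeloid RNA. The part of free RNA was not tested.

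Fth1 shared this direction. It measured 219, 193, 179 and 212 in the S100-high and 136, 127, 121 and 127 in the Csf1r-positive cells (0.65, SE 0.0553, limma adjusted p = 2.73e-07). Ftl1 went the other way, at 63.0, 56.6, 51.4 and 61.2 against 73.7, 67.8, 68.6 and 67.9 (−0.26, SE 0.0590, limma adjusted p = 0.00117). The libraries of the classes overlapped for neither chain. In the Mo-MF cultures, where the classes were not tested, both Fth1 and Ftl1 were lower in the S100a8/S100a9-high cells. The direction of Fth1 thus differed between culture and tumor.

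Blvrb was the other gene that was lower in S100-high cells. It measured 0.431, 0.352, 0.463 and 0.50 against 1.16, 0.637, 0.873 and 0.801 (−0.83, SE 0.0906, limma adjusted p = 2.72e-06). A Blvrb count was found in 24.4% of S100-high, 45.6% of Csf1r-positive and 40.8% of lymphocyte-marked cells, so this low-count gene was no rarer in lymphocyte-marked than in S100-high cells.

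Hmox1 had like means but unlike distributions. It measured 6.61, 5.92, 5.47 and 6.40 in S100-high and 6.30, 6.34, 6.88 and 6.65 in Csf1r-positive cells, which overlapped (−0.10, limma adjusted p = 0.168). A count was found in 74.2% of S100-high and 61.4% of Csf1r-positive cells (20.8% of lymphocyte-marked cells). The 10% of cells with the most Hmox1 held 46.4–49.9% of its counts among S100-high and 65.8–67.1% among Csf1r-positive cells. Its counts were thus more concentrated in few cells in the Csf1r-positive class. The direction depended on these choices: with averages of log values, which weigh such cells less, Hmox1 was higher in S100-high cells by 0.36 (limma adjusted p = 0.000329), and with the S100 limit at 1000 it was lower (−0.42, adjusted p = 0.000112).

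The remaining 3 genes did not pass the test between these classes. Slc11a1 measured 0.886–1.14 in S100-high and 0.986–1.11 in Csf1r-positive cells (−0.04, limma adjusted p = 0.53), although it was called lower with averages of log values (−0.0747, adjusted p = 0.00375). A Slc11a1 count was found in 2.86% of lymphocyte-marked cells against 46.3% and 56.9%. Ncoa4 measured 0.251–0.402 and 0.293–0.398 (−0.14, limma adjusted p = 0.0694), and it was called lower under 3 alternatives (adjusted p = 0.0185 to 0.0281). Tfrc measured 0.181–0.282 and 0.172–0.244 (0.03, limma adjusted p = 0.627). It was called lower in S100-high cells with the S100 limit at 1000 (−0.48, adjusted p = 9.77e-05) and with at least 3 Csf1r counts (−0.32, adjusted p = 0.000427). Its count was more frequent in lymphocyte-marked cells (25.3%) than in S100-high (12.1%) or Csf1r-positive cells (10.8%).

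**Figure D2:**
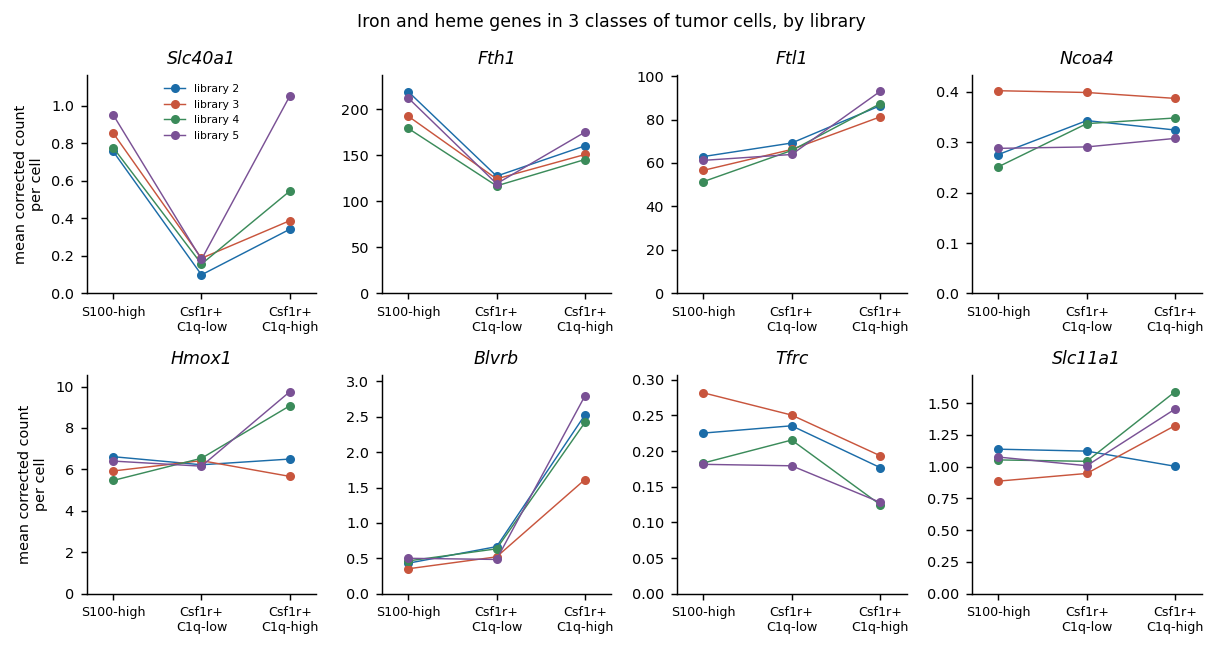
Mean corrected count per cell of each iron gene in the 4 tumor libraries, by cell class (S100-high, C1q-low Csf1r-positive and C1q-high Csf1r-positive cells), on linear axes from 0, with lines joining the points of a library. Slc40a1 and Fth1 are lowest in the C1q-low cells, and Blvrb and Ftl1 are highest in the C1q-high cells.

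The counts read differently against the whole table. Of the 8 genes 2 were higher (Slc40a1 and Fth1) and 2 lower in S100-high cells, while 17.5% of 5923 genes tested were higher and 72.5% lower. The median over all genes was −0.61, so that the 4 genes without a call, and Ftl1, lay above the typical gene. Among further iron genes, 11 were higher and 27 lower of 41 tested. Higher were Lcn2 (4.63), Steap4 (2.23), Fbxl5 (an iron-sensing ubiquitin ligase subunit, 1.67) and Gclm (a subunit of the enzyme that starts glutathione synthesis, 1.29). Lower were Lrp1 (−2.59), the metal importer Slc39a14 (−1.86), Hfe (−1.55) and Blvra (biliverdin reductase A, −1.39). Slc39a14 and Hfe averaged only 0.0471 and 0.0287 counts in S100-high cells, below the minimum of 0.1. They were tested only because of their level in Csf1r-positive cells, and the pseudocount sets their differences in part. Of the iron-sulfur and chaperone genes, 10 of 11 were lower and 1 was higher. Among the lower ones, Hscb, Bola3, Nfu1, Cisd1, Isca2 and Glrx5 averaged 0.0580 to 0.0993 counts in S100-high cells. They too were tested only because of their level in Csf1r-positive cells, as were others of the 27 lower genes.

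A stricter class gave a larger exporter difference: against Csf1r-positive cells with fewer than 30 counts of S100a8 and S100a9, Slc40a1 was higher by 2.19. That limit was chosen after seeing the data. No doublet caller was run, and the part of doublets in these classes was not tested.

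Within the Csf1r-positive cells, those with at least 10 counts of the C1q genes (complement subunits of mature macrophages) were compared with the rest. They were 407, 62, 112 and 117 cells per library, with macrophage markers of 100–122 and monocyte markers of 7.17–10.1 per cell, against 22.3–29.7 and 25.4–30.6 in C1q-low cells. The sums include the gated C1q genes. Neutrophil markers summed to 5.24, 19.6, 9.09 and 10.2 in C1q-high cells of libraries 2, 3, 4 and 5 and to 6.47, 10.4, 7.03 and 6.81 in C1q-low cells, higher in 3 of the 4 libraries. Cell cycle genes summed to 1.55–2.23 in C1q-high and 0.32–1.42 in C1q-low cells, and the part of either list in the results was not tested.

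Blvrb, Slc40a1 and both ferritin chains were higher in C1q-high cells. Blvrb measured 2.53, 1.61, 2.42 and 2.79 in C1q-high cells and 0.665, 0.520, 0.634 and 0.484 in C1q-low cells of libraries 2, 3, 4 and 5. The groups were well apart (1.83, SE 0.132, limma with the library as a block, adjusted p = 1.55e-05). Slc40a1 measured 0.342, 0.387, 0.545 and 1.05 against 0.0988, 0.187, 0.156 and 0.181 (1.32, SE 0.173, limma adjusted p = 0.000396). The Slc40a1 value of library 5 was much above the others, and without that library the difference was 1.08. With at least 30 C1q counts as the limit, it was 0.77 and did not pass the test (limma adjusted p = 0.0808). At a minimum of 0.5 Slc40a1, like Ncoa4 and Tfrc, was too low to be tested.

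Ftl1 measured 86.3, 81.2, 87.2 and 92.9 against 69.2, 66.2, 65.8 and 63.9 (0.39, SE 0.0926, limma adjusted p = 0.0087). Fth1 measured 160, 151, 146 and 175 against 127, 124, 117 and 119 (0.37, SE 0.0940, limma adjusted p = 0.012). The classes overlapped for neither chain, but without library 5 both calls were lost (adjusted p = 0.0547 for Ftl1 and 0.0731 for Fth1).

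Tfrc was lower in C1q-high cells at a low level, 0.177, 0.194, 0.125 and 0.128 against 0.235, 0.25, 0.215 and 0.179 (−0.33, SE 0.0923, limma adjusted p = 0.0189). It was lower in each of the 4 libraries, but the groups overlapped across libraries, and the call was lost in 7 of the alternatives run, while at a minimum of 0.5 Tfrc was too low to be tested. Hmox1 was spread widely among the C1q-high cells, at 6.50, 5.66, 9.07 and 9.75 against 6.22, 6.42, 6.54 and 6.15 (0.25, limma adjusted p = 0.174). It was called higher with averages of log values and without library 3 (adjusted p = 0.0268 and 0.0227). Slc11a1 measured 1.0, 1.32, 1.59 and 1.45 against 1.12, 0.946, 1.04 and 1.01 (0.34, limma adjusted p = 0.059). It was called higher under 4 alternatives (adjusted p = 0.014 to 0.0496): scaled profiles, averages of log values, a C1q limit of 30 and the fit without library 2. The log2 difference of Ncoa4 was 0.00 (adjusted p = 0.998).

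Of the 8 genes, 4 were higher and 1 lower, beside 17.1% and 23.2% of 6660 genes tested, and the median over all genes was −0.05. Of 52 further iron genes tested, 12 were higher and 12 lower. The higher ones included Cd163 (the receptor for hemoglobin bound to haptoglobin, 2.36), Spic (a transcription factor of iron-recycling macrophages, 1.49), Nr1h3 (a sterol-sensing nuclear receptor, 1.36) and Alad (an enzyme of heme synthesis, 0.85). In C1q-low cells Cd163, Spic, Nr1h3 and Alad averaged only 0.00924, 0.0911, 0.0856 and 0.0588 counts, below the minimum of 0.1, so these genes were tested only because of their level in C1q-high cells and the pseudocount sets their differences in part. Hp (−2.0), the antioxidant gene Srxn1 (−0.78), Slc39a14 (−0.72) and the mitochondrial iron carrier Slc25a37 (−0.71) were lower.

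Dividing cells need iron, and the transferrin receptor is known to be high in many of them, so cultured cells with counts of both Mki67 and Top2a were set against the others. They numbered 378 and 342 in B-MF (7.22% and 6.42%) and 247 and 300 in Mo-MF (5.10% and 5.57%). Tfrc was lower in the cycling cells, not higher. It measured 3.15 and 2.45 in cycling against 3.66 and 3.59 in other B-MF, and 1.72 and 1.62 against 4.14 and 4.16 in Mo-MF. In no library did the cycling cells reach the others, and in Mo-MF the gap was far wider.

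Over both cultures the Tfrc difference was −0.82 (SE 0.176, limma with the library as a block, adjusted p = 0.00368). By library it was −0.21 and −0.54 for B-MF, compared with −1.22 and −1.31 for Mo-MF. The difference between the cultures, tested as an interaction, was 0.89 (SE 0.117, limma adjusted p = 0.0115). Without the S100-high cells the Mo-MF values were −1.25 and −1.31, as large as with them.

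Slc40a1, Fth1 and Ncoa4 were lower in cycling cells too. Slc40a1 differed by −0.26 and −0.18 in B-MF and by −0.66 and −0.69 in Mo-MF (−0.45 over both, SE 0.0955, limma adjusted p = 0.00352; interaction 0.46, SE 0.0791, adjusted p = 0.0272). Fth1 differed by −0.15 and −0.11 in B-MF and by −0.40 and −0.45 in Mo-MF (−0.28, SE 0.0698, limma adjusted p = 0.00776). Its interaction of 0.30 did not pass the test (adjusted p = 0.0841), but was called at a pseudocount of 1, with a minimum of 0.5, in scaled profiles and with averages of log values (adjusted p = 0.000708 to 0.0406). Ncoa4 was lower by a log2 difference of −0.26 (SE 0.0544, limma adjusted p = 0.00303), with no call for an interaction (0.03, adjusted p = 0.906).

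Slc11a1 and Blvrb completed the genes lower in cycling cells. Slc11a1 differed by −0.48 and −0.42 in B-MF and by −0.97 and −1.24 in Mo-MF (−0.78, SE 0.134, limma adjusted p = 0.00119; interaction 0.66, SE 0.104, adjusted p = 0.0208). Blvrb differed by −0.23 and −0.22 in B-MF and by −0.31 and −0.35 in Mo-MF (−0.28, SE 0.0473, limma adjusted p = 0.00113; interaction 0.11, adjusted p = 0.482).

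Hmox1 moved in opposite directions in the cultures. It measured 5.01 and 5.13 in cycling against 4.13 and 4.06 in other B-MF, and 4.43 and 4.09 against 5.07 and 5.11 in Mo-MF. Its log2 differences were 0.27 and 0.33 in B-MF but −0.19 and −0.32 in Mo-MF (interaction 0.55, SE 0.0842, limma adjusted p = 0.0186), so that over both cultures it averaged 0.02 (adjusted p = 0.858). Ftl1 had the same signs at a smaller size, 0.07 and 0.08 against −0.24 and −0.29, and its interaction of 0.34 did not pass the test (limma adjusted p = 0.0583). It was called under the same 4 alternatives as that of Fth1 (adjusted p = 0.00041 to 0.0233). Relative to the median of all genes in each library (0.24–0.31), Hmox1 in cycling B-MF was close to the typical gene.

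**Figure D3:**
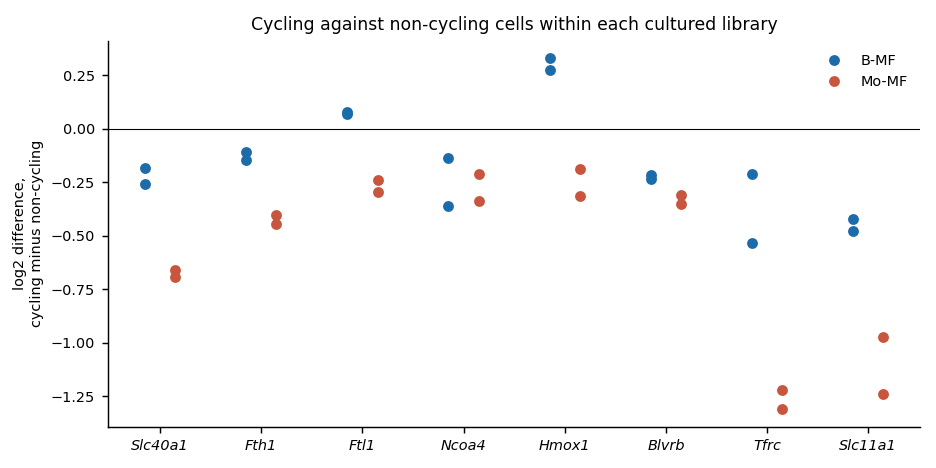
Log2 difference of each iron gene between cycling and other cells, 1 point per library of B-MF and Mo-MF. Tfrc and Slc11a1 lie lowest in Mo-MF, and Hmox1 lies above 0 in both B-MF libraries and below 0 in both Mo-MF libraries.

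In cycling cells 6 of the 8 genes were lower and 0 higher, in a comparison in which 67% of 9209 genes tested were higher and 10% lower, with a median over all genes of 0.28. The interaction passed the test for 4 of the 8 genes, beside 4.39% of all genes. These 4 calls were fragile: 0 were left at a pseudocount of 0.01 or with no minimum, and 0–2 when 1 library was left out, although all 4 interactions kept their sign under every alternative run. For Tfrc the call was lost without either Mo-MF library (adjusted p = 0.0513 and 0.080), and for Slc40a1 without any single library (adjusted p = 0.0884 to 0.17). The Slc40a1 interaction also shrank to 0.13 at a pseudocount of 1 (adjusted p = 0.0548) and to 0.0743 with averages of log values (adjusted p = 0.266). Without the library block 3 of the 6 lower genes kept their call, and Slc40a1, Fth1 and Blvrb lost it (adjusted p = 0.667, 0.271 and 0.0705). Of 60 further iron genes tested, 38 were higher and 4 lower. Heme synthesis genes were higher in 11 of 13 and iron-sulfur and chaperone genes in 12 of 15. These counts include Uros (heme synthesis) and Lyrm4 (iron-sulfur clusters), which averaged only 0.0940 and 0.0896 counts in the non-cycling cells. Both lay below the minimum of 0.1 there and were tested only because of their level in cycling cells. The same held for Abcg2 (0.0966) among the 38 higher genes. Alad (1.01), Gclc (the catalytic subunit of the enzyme that starts glutathione synthesis, 0.79) and Isca2 (an iron-sulfur assembly factor, 0.75) were higher. Hif1a (−0.37), Bach1 (−0.35) and the heme carrier Slc48a1 (−0.23) were lower. The Slc48a1 call was lost at a pseudocount of 0.01, with no minimum and without either Mo-MF library (adjusted p = 0.0565 to 0.145).

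**Figure D4:**
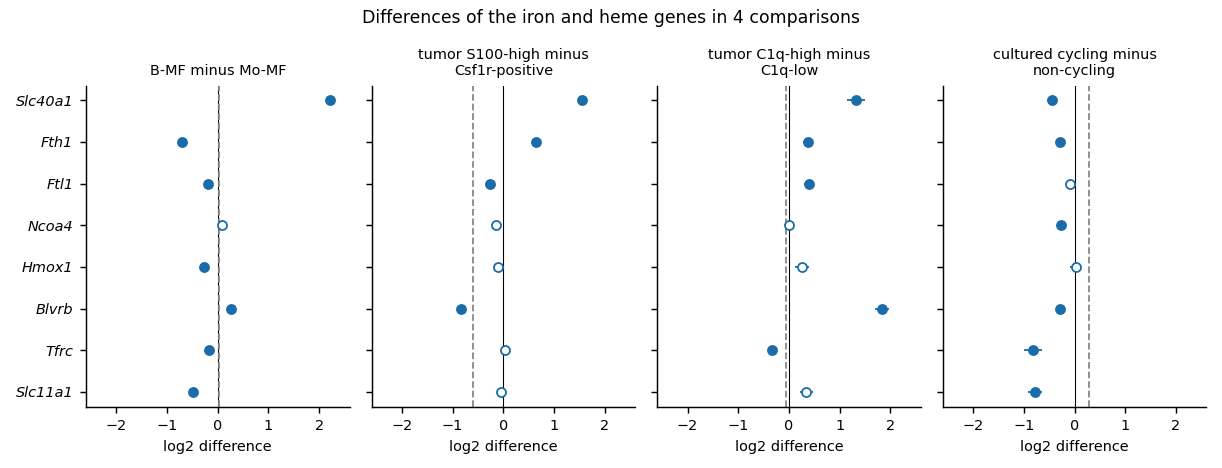
Log2 differences of the 8 iron genes with their standard errors (bars) in the 4 comparisons (B-MF against Mo-MF, S100-high against Csf1r-positive, C1q-high against C1q-low, and cycling against other cells), with filled points where the test was passed and a dashed line at the median of all genes tested. Slc40a1 is at 2.21, 1.56, 1.32 and −0.45, and Ncoa4 is the gene with the smallest range.

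The ratio of heavy to light ferritin messages differed between some of the cell classes. Fth1 over Ftl1 came to 1.60 and 1.73 among B-MF and to 2.31 and 2.38 among Mo-MF. In the tumor it was 3.4–3.49 in S100-high and 1.76–1.88 in Csf1r-positive cells. Mo-MF S100-high cells stood at 2.62 and 2.61, slightly above the Csf1r-positive cells of their own libraries (2.31 and 2.38). The C1q-high and C1q-low cells had ratios of 1.67–1.89 and 1.78–1.88, which overlapped. These ratios are descriptions with no test. The kit reads the 3′ ends of messages, so gene length does not enter, but Fth1 and Ftl1 have near-identical copies elsewhere in the genome, and reads of the copies and of the genes may have been split. The copy Ftl1-ps1 was listed at 2.98–3.85 counts per cell in the cultures, far below Ftl1 itself. That level does not show how many reads of Ftl1 or Fth1 were affected by copies, and the part of copies in these ratios was not tested.

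Across single cells the ferritin chains varied together, with a mean correlation of log values within libraries of 0.68 in B-MF, 0.74 in Mo-MF, 0.64 in tumor Csf1r-positive and 0.46 in S100-high cells. Hmox1 and Ftl1 were correlated at 0.56 in both tumor classes and more weakly in the cultures (0.21 in B-MF and 0.32 in Mo-MF). Slc40a1 and Ftl1 were correlated at 0.23 in B-MF and at −0.13 in Mo-MF. Mo-MF here include the S100a8/S100a9-high cells, which had more Slc40a1 and less Ftl1, and their part in the negative value was not tested. Cells of a library share its preparation, and these are descriptions with no test.

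Of 4048 genes with a mean of at least 0.5, those most like Slc40a1 across B-MF were Psap (0.30), Creg1 (0.29), Cat (0.27), Ctsd (0.25) and Ftl1 (0.23), averaged over the 2 libraries. Psap encodes the precursor of the saposins and Ctsd the protease cathepsin D, both of the lysosome, and Cat encodes catalase. In tumor S100-high cells the leading genes of 1660 were Cd84, Msrb1, Zfp36l2, Ftl1 and Csf3r, with correlations of only 0.118–0.127 at these sparse counts. In tumor Csf1r-positive cells, a class added after its values were seen, Slc40a1 was most like Hdc, Hcar2, S100a9, Acod1 and Cd84 (0.26–0.29 of 2413 genes), and S100a9 is a neutrophil gene and part of the gate. In Mo-MF, added likewise, the leading gene was Clec4n (0.23).

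Chromatin at these genes was read in BMBP, the precursors, and not in the macrophages. A promoter was scored as open in a library with a peak within 1000 bases of the gene's start in mm10. The peak lists were longer in BM (65832–76530 peaks) than in spleen (43407–50392), the depth of each library is unknown, and a bulk sample cannot tell fewer cells with an open region from a less open region.

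The promoters of Slc40a1 and Slc11a1 carried peaks in each of the 6 BM libraries but in none from the spleen. This pattern held for 3.19% of 21938 protein-coding genes, and the opposite pattern for 0.0957%, none of them an iron gene here. The Slc40a1 peak covered 1:45925113-45926171, centered 881 bases inside the gene (1:45908068-45926523, minus strand). Its fold enrichment was 11, 13.4 and 15.9 in CSF1R+ and 9.81, 10.1 and 16.2 in CSF1R− BM cells. A further region, 1:45926471-45926692, lay across the start itself. It had peaks in only 3 BM and 0 spleen libraries, like 4.49% of regions over the genome, with a median fold enrichment of 4.72. Lists of equal length held no peak there. No peak lay within 10000 bases of Slc40a1 in any spleen library.

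The Slc11a1 peak covered 1:74374973-74375697, across the start of the gene (1:74375195-74386062, plus strand). Fold enrichment was 9.05, 6.75 and 7.80 in CSF1R+ and 11.6, 8.47 and 12.4 in CSF1R− BM cells, which overlapped. When every library was cut to its 43407 best peaks, Slc40a1 kept the BM pattern and Slc11a1 did not, among 347 genes (1.58%). The Slc11a1 promoter is shown because it is the BM-only promoter with an entry in the RefSeq promoter table (GRCm38.p6), chr1:74374953-74375194, plus strand, 5′ to 3′ up to the annotated start, with the purine-rich core GAGGAA of PU.1 sites in capitals.
Slc11a1: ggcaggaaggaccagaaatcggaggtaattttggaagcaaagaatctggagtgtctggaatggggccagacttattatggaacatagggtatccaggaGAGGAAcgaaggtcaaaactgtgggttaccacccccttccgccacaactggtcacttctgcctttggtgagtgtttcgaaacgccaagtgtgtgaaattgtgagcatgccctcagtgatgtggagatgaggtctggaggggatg
Its first base lies at −144 from the start. GAGGAA, read on both strands, occurred in 23.3% of 32851 promoters searched over 250 bases, and of the 6 iron genes with an entry only Slc11a1 held it. The E-box CACGTG was in 6.02% of promoters and in none of these, and the antioxidant core TGACNNNGC in 10.2% and in Ncoa4. None of these matches shows binding.

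Hmox1, Blvrb, Ftl1, Ncoa4 and Tfrc had promoter peaks in all 12 libraries, as did 47.9% of genes. At Hmox1, fold enrichment was 17.9, 19.6 and 19.8 in CSF1R+ and 22.1, 23.6 and 23.4 in CSF1R− BM cells, and 12.2, 11.6 and 17.4 and 12.3, 11.6 and 12.6 in the spleen. Every BM value exceeded every spleen value at this gene, as at 4.87% of the 10501 genes with a promoter peak in all libraries, while at Ftl1 every BM value was below every spleen value, as at 24.6% of them. The other 4 had 15.9–25.2 in BM and 17.5–23.4 in the spleen. Fth1 had no peak at its outermost annotated start, like 38.9% of genes, but a peak at 19:9982252-9983431 in all 12 libraries covered the IRE printed above.

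Away from promoters, Hmox1 and Blvrb each had a BM-only region. Upstream of Hmox1 a region at 8:75083774-75084174, centered 9647 bases before the start, had peaks in all 6 BM and 0 spleen libraries, with a median fold enrichment of 7.43. Regions 7383 and 3767 bases before the start had peaks in 3 BM libraries each and 0 spleen libraries, like 4.49% of regions. Downstream of Blvrb a region at 7:27467596-27468133 had peaks in all 6 BM and 0 spleen libraries, with a median of 12.3. Over the 8 genes and 10000 bases on either side, 4 of 36 merged regions had peaks in all 6 BM and 0 spleen libraries, a share near the 11.2% of 101333 regions over the genome. In lists of equal length the Blvrb region kept this pattern, and the region farthest upstream of Hmox1 had peaks in only 4 BM libraries and the other 2 in none.

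By the presence or absence of a promoter peak, none of the 8 genes separated CSF1R+ from CSF1R− cells in either tissue. A peak in all libraries of one CSF1R group and in 0 libraries of the other was found for 17 and 11 genes in BM (0.0775% and 0.0501%) and for 19 and 0 genes in the spleen (0.0866% and 0%), out of the same 21938 genes. In fold enrichment, which was not tested, every BM CSF1R+ library lay below every BM CSF1R− library at Hmox1 and at Blvrb (15.9–17.1 against 17.6–18.1), as at 26.4% of 11832 genes with a peak in each of these libraries. In the spleen, every CSF1R+ library lay above every CSF1R− library at Ftl1 (20.6–23.0 against 19.3–20.4), as at 15.7% of 10631 genes. Such separation was common over all genes, so these values are no result about the iron genes. Promoter peaks in all 12 libraries were found at 5 of 5 B-cell, 4 of 9 macrophage and 2 of 5 dendritic markers. The same held for 1 of 4 monocyte, 1 of 6 erythroid and 0 of 6 neutrophil markers. BM-only promoters were found at 0 of 5 B-cell, 0 of 9 macrophage and 0 of 4 monocyte markers. They were found at 1 of 6 neutrophil (Cxcr2), 1 of 5 dendritic (Fscn1) and 1 of 6 erythroid markers (Hbb-bt). The part of other BM cells in the Slc40a1 and Slc11a1 peaks was not tested.

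**Figure D5:**
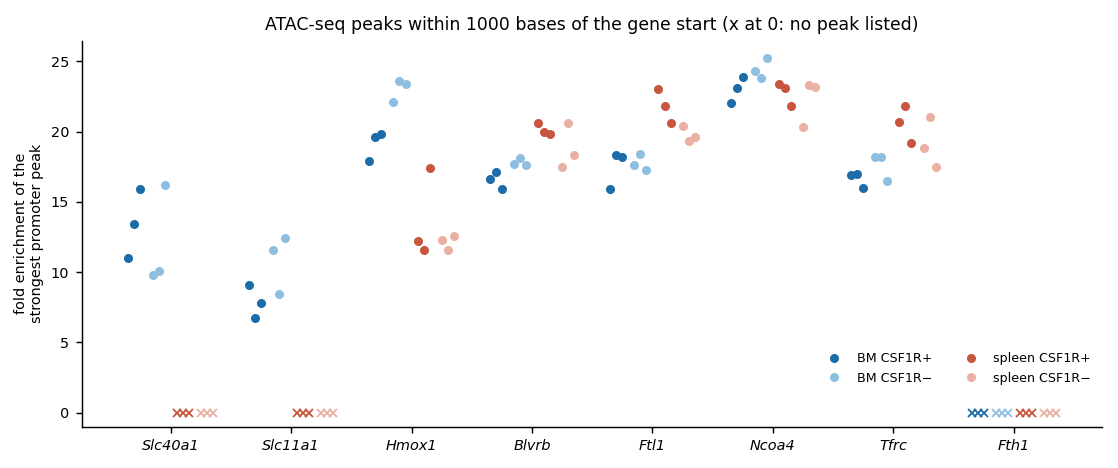
Fold enrichment of the strongest promoter peak of each iron gene in the 12 ATAC-seq libraries, by tissue and CSF1R group, with libraries that have no listed peak drawn as a cross at 0. Slc40a1 (9.81–16.2) and Slc11a1 (6.75–12.4) have values only in BM libraries, and Fth1 has none within 1000 bases of its outermost start.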

How the data were processed

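Samples were grouped by their labels. In the scRNA-seq tables, the authors deposited natural log values, ln(1 + corrected count), made by Cell Ranger counting and SCTransform correction of cells with 1000 or more genes. In the deposited values 3 cells of tumor library 3 and 1 cell of tumor library 5 had fewer. The tumor columns are numbered 2 to 5 and could not be tied to single labelled mice. Converted back, all values were whole within 1e-06. They fit no count model, so counts were averaged over the cells of each library or class, and log2(mean + 0.1) was compared in limma (lmFit, eBayes), leaving out genes averaging under 0.1 and adjusting by Benjamini-Hochberg over all genes tested. Nothing states that libraries of a culture came from separate mice, so p-values there may measure technical spread. Doublets were not removed. Lymphocyte-marked cells were 179 B and 66 T cells by their markers.

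For ATAC-seq, the authors trimmed reads with cutadapt, aligned them to mm10 with BWA, dropped duplicates and blacklisted regions and called peaks with MACS per library. The deposited lists give fold enrichment and −log10 p-values and q-values, without read counts. GENCODE (GRCm38) gave gene positions, and promoter sequences from RefSeq, where 6 of 8 genes had an entry.

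The 8 genes, gene lists, limits and tests were chosen with earlier results of these data known. Further genes named were up to 4 in each direction per comparison with the largest called difference and no overlap between sides, and for likeness to Slc40a1 the 5 highest mean correlations. A gene that this rule named is not reported here. On simulated data, with planted changes of a single size and independent noise, the script recovered changed genes of each comparison. Smaller changes and technical spread shared by genes were not tried. Alternatives were other pseudocounts, minimums, gates, scaling, averages of log values, the replicate block, equal peak lists and each library left out. Used were Python 3.11.15, numpy 2.4.6, pandas 2.3.3, scipy 1.17.1, R 4.3.3 and limma 3.58.1.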

Additional observations from a re-analysis of the deposited data

Results flagged for a closer look

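In 2 of 40 groups of 4 tumor libraries, 1 library lay apart from the others by Dixon's test, which chance gives in about 1 of 20 groups. Fth1 over all tumor cells was lowest in library 4, at 151 counts per cell, against 172–176 in the others. Ftl1 in Csf1r-positive cells was highest in library 2, at 73.7, against 67.8–68.6.

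The difference between cycling and other cells was not the same in both cultures for 4 genes, by the interaction term of limma. On the log2 scale, B-MF minus Mo-MF, it was 0.89 for Tfrc, 0.66 for Slc11a1, 0.55 for Hmox1 and 0.46 for Slc40a1, and 0–2 of these calls were left when 1 library was left out.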

How the results depend on the processing

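Of 956 values of single genes under the alternatives, 868 kept their direction and side of the threshold, 47 lost a call, 23 gained one and 18 turned sign. The 4 calls between the tumor classes held in all 64 values. Leaving out libraries in turn gave 1991–5535 genes called between the cultures, with 1–3 of the 8 genes higher and 3–5 lower, 1750–3015 genes between the C1q classes, with 2–5 of the 8 higher and 0–1 lower, and 79–138 genes with an interaction, 0–2 of them among the 8. The replicate block between the cultures, where same-numbered libraries deviated together with r of 0.126 over only 2 pairs, gave 3908 genes called against 3413 without it, and changed neither count of the 8 genes. Between S100-high and Csf1r-positive cells, 9911 genes were called with no minimum and 1828 with a minimum mean of 0.5. Of the 8 genes, 4 were lower from averages of log values and 5 with the S100 limit at 1000. The interaction was called for 130 and 901 genes at pseudocounts of 0.01 and 1, 23 with no minimum, 635 when scaled, 765 from averages of log values and 243 with at least 2 counts of each marker, and for 0 of the 8 genes at a pseudocount of 0.01 or with no minimum.

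Some genes without a call turned sign, and the tumor values 0.36 for Hmox1 and −0.48 and −0.32 for Tfrc were then calls. In the tumor classes Hmox1 was 0.00145 when scaled, 0.36 from averages of log values and 0.13 with at least 3 Csf1r counts, Slc11a1 was 0.0585 when scaled, and Tfrc was −0.48 with the S100 limit at 1000, −0.32 with at least 3 Csf1r counts and −0.00941 to 0.0730 without single libraries. Between the C1q classes Ncoa4 was −0.000393 at a pseudocount of 1 and −0.0200 to 0.0211 without single libraries. In cycling cells Hmox1 was −0.0447 when scaled, −0.0943 from averages of log values, −0.16 with at least 2 counts of each marker and −0.0780 to 0.14 without single libraries. The Ncoa4 interaction was −0.0231 with at least 2 counts and −0.0853 to 0.14 without single libraries.

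Between the C1q classes 0 of the 8 genes were lower at a pseudocount of 1, averages of log values and C1q limits of 3 and 30, where the Tfrc call was lost, and at a minimum of 0.5, where Tfrc was not tested. The minimum of 0.5 gave 1242 genes there and 3424 in cycling cells, where the fit with no replicate block kept 3 of the 8 genes lower. Peak lists of equal length gave 347 BM-only and 105 spleen-only promoters, with 1 of the 8 genes, and 2 BM-only regions at these genes against 4. Without the same-numbered library of every group, 180–256 genes separated the CSF1R groups, against 47. The cause of these shifts was not tested, and fewer genes tested or fewer libraries compared are part of the minimum and left-out settings by construction.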
